A study of Mus musculus with 2 samples.

Results

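The genes described here are 9 transcription factor genes of the thalamus, hypothalamus and midbrain, namely Tcf7l2, Shox2, Gbx2, Otp, Irx2, Irx3, Irx5, Gata3 and Foxa1. They are 9 of the 19720 genes in the table, were found by matching its Ensembl identifiers to mouse symbols, and were picked with their difference between the libraries known, so that their own values are a description and not a test. RNA was sequenced from the brain of H2A.Z conditional knockout mice (H2AZcKO) and of mice with floxed H2A.Z alleles (H2AZfl/fl), both on the C57BL/6 strain. H2A.Z is a histone variant that stands in for ordinary H2A at part of the nucleosomes, often near gene starts. The tissue is labelled telencephalic and the protocol names dissected cerebral cortex. The title of the floxed sample calls it WT, and the titles give embryonic day 16 where another field gives day 12. Triplicates are mentioned in the design text, whereas the table has 1 count column per genotype. There is thus no measure of the spread between animals, no test between genotypes was possible, and every interval below covers counting error only. The sources used here name neither the Cre line nor any pooling of animals.

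The vertebrate forebrain and midbrain are divided early into territories, each marked by its own set of transcription factors. The telencephalon gives rise to the cortex and basal ganglia, while the thalamus and hypothalamus lie behind and below it, and the midbrain lies further back. Tcf7l2 and Gbx2 act in thalamic neurons, Otp specifies neuroendocrine neurons of the hypothalamus, and Gata3 and Foxa1 act in GABAergic and ventral progenitor lineages of the midbrain. In the embryo these genes are known mainly from regions outside the dorsal cortex.

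The knockout library had 9028523 reads in listed genes and the floxed library 8474545. A gene is called measured here with at least 20 reads in both libraries together, which 14366 genes had. Ratios are knockout over floxed after TMM scaling for library size, and log2 ratios have 0.5 read added to each count. The targeted gene H2afz had 535 reads in the knockout library and 1152 in the floxed library, 2.24-fold lower. Cortical identity of the tissue was checked on 20 dorsal telencephalic genes. All 20 were measured and none was 1.5-fold apart, with a median log2 ratio of -0.09 and a range of -0.37 to 0.18. Emx1, a cortical homeobox gene, had 645 reads in the knockout library and 588 in the floxed library. Both libraries thus carried cortical markers in quantity. In bulk tissue, more cells of a type and more RNA per cell cannot be told apart.

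Promoter sequences are shown for 3 of the 9 genes: Tcf7l2, which gave most of the reads, and Shox2 and Foxa1, which had 0 reads in the floxed library. RefSeq (GRCm38.p6) gave 9 start windows for 8 genes, each of 250 bases before the start and 50 after, and the 250 bases before the start are printed 5′ to 3′ on the gene's strand. Tcf7l2 has 2 windows that lie 153.5 kb apart, at chr19:55741560-55741809 and chr19:55895071-55895320 on the plus strand. The Shox2 stretch is chr3:66981772-66982021 on the minus strand and that of Foxa1 is chr12:57546112-57546361 on the minus strand. Capitals mark a match to a searched motif.
Tcf7l2, first start: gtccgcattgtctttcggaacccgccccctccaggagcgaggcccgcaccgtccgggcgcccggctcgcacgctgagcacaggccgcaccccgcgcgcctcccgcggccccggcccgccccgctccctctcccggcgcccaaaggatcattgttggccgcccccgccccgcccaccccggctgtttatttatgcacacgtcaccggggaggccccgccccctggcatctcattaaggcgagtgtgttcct
Tcf7l2, internal start: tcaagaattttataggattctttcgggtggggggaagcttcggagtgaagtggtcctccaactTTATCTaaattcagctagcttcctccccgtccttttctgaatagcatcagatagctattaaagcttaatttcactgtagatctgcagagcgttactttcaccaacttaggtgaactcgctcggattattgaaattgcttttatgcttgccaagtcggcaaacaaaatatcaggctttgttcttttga
Shox2: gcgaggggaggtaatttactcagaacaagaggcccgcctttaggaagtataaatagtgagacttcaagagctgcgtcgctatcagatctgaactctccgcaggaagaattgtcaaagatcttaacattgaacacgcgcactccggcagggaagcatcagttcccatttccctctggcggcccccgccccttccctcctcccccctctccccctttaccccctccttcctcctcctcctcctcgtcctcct
Foxa1: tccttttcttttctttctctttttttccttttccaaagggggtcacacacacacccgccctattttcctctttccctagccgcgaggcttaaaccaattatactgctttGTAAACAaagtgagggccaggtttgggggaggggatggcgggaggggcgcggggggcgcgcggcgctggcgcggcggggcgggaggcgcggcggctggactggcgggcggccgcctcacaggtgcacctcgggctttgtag

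The motifs searched, on both strands of the full 300-base windows, were ATCAAAG for TCF/LEF factors, AGATAA for GATA factors and TGTTTAC for FOXA factors. The TCF/LEF letters were in 0 of the 9 windows and in 3.73% of all 32851 windows. The GATA letters were in 1 window, the internal Tcf7l2 start, where they begin 187 bases before the start, and in 11.2% of all windows. The FOXA letters were in 1 window, that of Foxa1 itself, where they begin 141 bases before the start, and in 3.65% of all windows. Both matches lie in different windows and so do not overlap. The windows held a median of 22 CpG sites, with 34 at the first Tcf7l2 start, 26 at Foxa1, 11 at Shox2 and 7 at the internal Tcf7l2 start, against a median of 7 over all windows. Read counts are per gene, so reads from either start of Tcf7l2 are summed.

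All 9 genes had more reads in the knockout library than in the floxed library. Of the 9, 8 were measured, and these 8 exceeded 1.5-fold in favour of the knockout library, with intervals that excluded a ratio of 1. None of the 8 was lower. Among all measured genes, the share that passed 1.5-fold was 3.52% for higher in the knockout and 5.43% for lower, and beyond counting error it was 2.02% for higher and 3.2% for lower. Nothing is read from this comparison, because the genes were picked on the same difference. In addition, 8 of them reached the read minimum on knockout reads alone, and only Tcf7l2 and Otp would have reached it on floxed reads. The 9 genes together had 1371 reads in the knockout library and 171 in the floxed library. Tcf7l2 gave 74.2% of these reads in the knockout library and 64.9% in the floxed library. Without Tcf7l2 the remaining 8 had 354 reads in the knockout library and 60 in the floxed library, 5.67-fold higher (4.31 to 7.59, exact 95% interval).

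**Figure D1:**
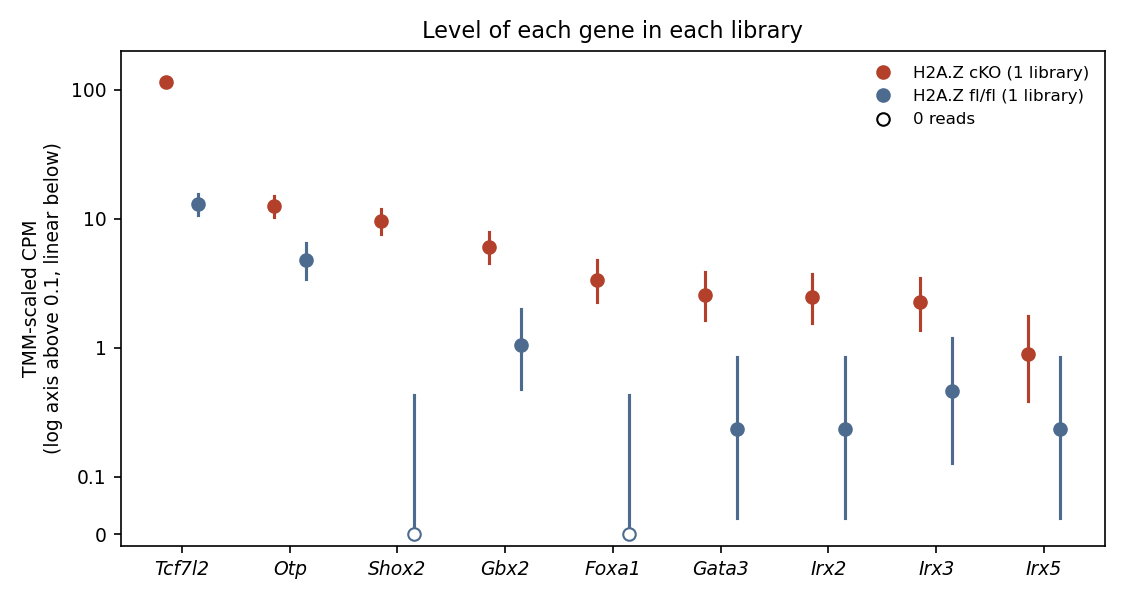
TMM-scaled CPM (read counts scaled to a common library size; log axis above 0.1, linear below) of the 9 genes in the H2A.Z cKO library (red) and the H2A.Z fl/fl library (blue), with exact 95% Poisson intervals that cover counting error only. Each red point lies above its blue partner, and Shox2 and Foxa1 are at 0 reads in the fl/fl library.

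Among the thalamic factors, Tcf7l2, which encodes a nuclear effector of Wnt signalling that maintains thalamic neuron identity, had by far the most reads. Tcf7l2 (ENSMUSG00000024985, chromosome 19, 55741810 to 55933654, GRCm38) had 1017 reads in the knockout library and 111 in the floxed library. Its ratio was 8.81-fold (7.24 to 10.8), with a lower bound far above 1. Of 10137 named genes whose better covered library had 100 reads or more, it ranked 2 by ratio, below the gene model Gm14226 with 817 reads in the knockout library and 14 in the floxed library. The 5 nearest of these genes were Syt13, Isl1, Dlk1, Dlx6 and Rxrg, whose log2 ratios were 1.41 to 1.62 below its own. The nearest, Syt13, a synaptotagmin gene, had 294 reads in the knockout library and 85 in the floxed library, so no gene of this depth had a ratio close to that of Tcf7l2.

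Shox2, a homeobox gene of the caudal thalamus that is also active outside the brain, was seen in the knockout library alone. Shox2 (ENSMUSG00000027833, chromosome 3, 66971727 to 66981771) had 85 reads in the knockout library and 0 in the floxed library. Set against a floor of 3 reads in the floxed library, it was 27.2-fold higher in the knockout library, without counting error in its 85 reads. The exact interval on the split of its reads reached down to 21.7-fold. The annotated gene Rsrc1, a splicing-related gene on the opposite strand, overlaps Shox2, and whether reads were counted by strand is not stated. Rsrc1 had 412 reads in the knockout library and 337 in the floxed library, a log2 ratio of 0.23, so the floxed library had reads of this overlapping gene and none assigned to Shox2.

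Gbx2, a homeobox gene of postmitotic thalamic neurons that also positions the border of midbrain and hindbrain, was intermediate. Gbx2 (ENSMUSG00000034486, chromosome 1, 89927956 to 89931179) had 54 reads in the knockout library and 9 in the floxed library, 5.77-fold higher (2.83 to 13.3). The non-coding gene D130058E05Rik overlaps it on the opposite strand and had 4 reads in the knockout library and 3 in the floxed library.

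Otp was the one hypothalamic factor among the 9 and had the smallest ratio of the measured genes. It encodes a homeodomain protein needed for oxytocin, vasopressin, thyrotropin-releasing hormone and other neuroendocrine neurons. Otp (ENSMUSG00000021685, chromosome 13, 94875602 to 94885130) had 112 reads in the knockout library and 41 in the floxed library, 2.63-fold higher (1.82 to 3.85). It was the gene with the second most reads in both libraries.

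The Iroquois homeobox genes mark caudal forebrain, midbrain and more posterior territories and lie in paired genomic clusters. Irx2 (ENSMUSG00000001504, chromosome 13, 72628820 to 72634198) had 22 reads in the knockout library and 2 in the floxed library, a ratio of 10.6 with a wide interval (2.60 to 92.8). Irx3 (ENSMUSG00000031734, chromosome 8, 91798525 to 91801916) had 20 reads in the knockout library and 4 in the floxed library, a ratio of 4.81 (1.61 to 19.3). Irx5 (ENSMUSG00000031737, chromosome 8, 92357796 to 92361456) had 8 reads in the knockout library and 2 in the floxed library. Its ratio of 3.85 (0.768 to 37.2) was within counting error, and it was the one gene of the 9 below the read minimum. The antisense gene Irx3os overlaps Irx3 and had 3 reads in the knockout library and 1 in the floxed library.

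Gata3 and Foxa1 represent the midbrain. Gata3, a zinc finger gene that acts downstream of Gata2 and Tal1 in GABAergic neurons of the brainstem, had 23 reads in the knockout library and 2 in the floxed library. Its ratio was 11.1 (2.73 to 96.8), so the size of the difference was poorly fixed while its lower bound stayed above 1.5. Gata3 (ENSMUSG00000015619) lies on chromosome 2 from 9857078 to 9890034, and 3 annotated genes overlap this span, which were not analysed here. Foxa1, a forkhead gene of the floor plate and of dopaminergic progenitors, had 30 reads in the knockout library and 0 in the floxed library. Foxa1 (ENSMUSG00000035451, chromosome 12, 57540631 to 57546121) was 9.62-fold higher in the knockout library against the floor of 3 reads, and its exact interval reached down to 7.35-fold.

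Levels were compared between genes as TMM-scaled CPM per kb of merged exons. In the knockout library, Tcf7l2 stood highest at 13.0 (12.2 to 13.8). Otp had the next value at 4.36 (3.59 to 5.24), though its interval overlapped that of Gbx2. Shox2 at 2.88 (2.30 to 3.56) and Gbx2 at 2.78 (2.09 to 3.63) could not be ordered within counting error. The same held for neighbours among Foxa1 at 1.01, Irx3 at 0.812, Irx2 at 0.751 and Gata3 at 0.648, whose intervals overlapped. Irx5 at 0.287 (0.124 to 0.565) had the smallest value, but its interval overlapped those of Irx3, Irx2 and Gata3. In the floxed library, Otp at 1.66 (1.19 to 2.25) and Tcf7l2 at 1.47 (1.21 to 1.78) were the 2 highest and their intervals overlapped. Gbx2 followed at 0.482 (0.220 to 0.915), and the other 6 were between 0 and 0.169. By this scale Tcf7l2 ranked 4197 of the listed genes in the knockout library and 11915 in the floxed library.

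In the authors' deposited table, 8 of the 9 genes were marked significant, all higher in the knockout, and Irx5 was not. The authors' deposited table marks 318 of 19720 genes in this way, 87 of them higher in the knockout and 231 higher in the control. The 9 genes were picked on the difference between these same libraries, so their marks are not separate support. How the authors tested is not given, and 1 count column per genotype shows no spread between animals. The fold in the authors' deposited table is control over knockout with a count of 0 entered as 0.5 read. Its inverse is 159.6 for Shox2 and 56.3 for Foxa1, where the floor of 3 reads gave 27.2 and 9.62. For Tcf7l2, with reads in both libraries, the inverse of the fold in the authors' deposited table was 8.60, close to the 8.81 given above.

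Paralogs of the 9 genes differed in both directions. Across all measured genes, 3.52% were higher in the knockout library and 5.43% lower. Of 14 paralogs looked for, 7 were listed and 5 measured, of which 2 passed 1.5-fold upwards in the knockout library and 1 downwards, with a median log2 ratio of -0.22. Irx1, the cluster neighbour of Irx2, had 21 reads in the knockout library and 2 in the floxed library, a ratio of 10.1 (2.47 to 88.8). The 4 listed Iroquois genes together had 71 reads in the knockout library and 10 in the floxed library, 6.83-fold higher (3.50 to 14.8). Gbx1, the paralog of Gbx2, had 51 reads in the knockout library and 27 in the floxed library, 1.82-fold higher (1.12 to 3.01). The other TCF/LEF family genes had log2 ratios below 0. Tcf7 had 53 reads in the knockout library and 80 in the floxed library, 1.57-fold lower (1.10 to 2.27), Lef1 had a log2 ratio of -0.37 (-0.74 to -0.01) and Tcf7l1 one of -0.22 (-0.45 to 0.01). Gata2, the paralog of Gata3, had 10 reads in the knockout library and 8 in the floxed library, under the read minimum.

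**Figure D2:**
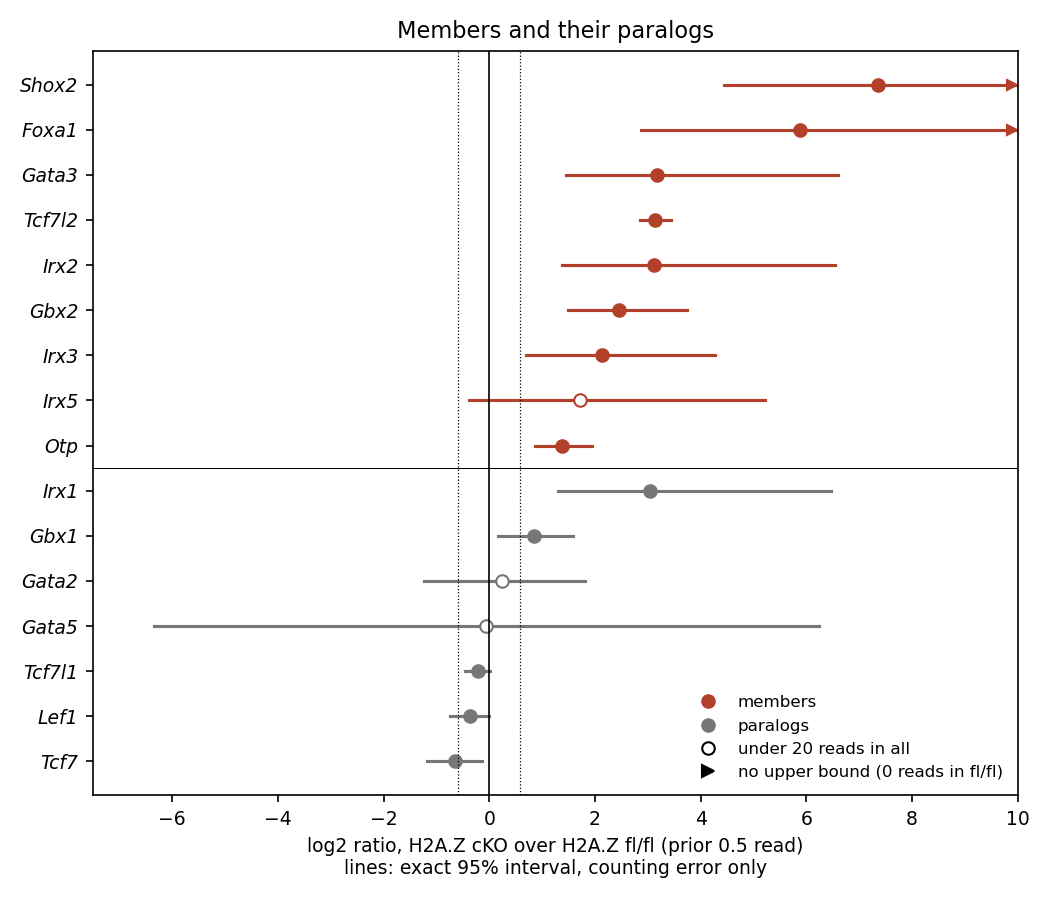
Log2 ratio of the H2A.Z cKO library to the H2A.Z fl/fl library for the 9 genes (red) and their listed paralogs (grey), with exact 95% intervals for counting error; dotted lines mark 1.5-fold. The 9 genes all lie right of 0, from 1.38 for Otp to 7.36 for Shox2, and the paralogs lie on both sides.

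Measured genes within 200 kb of the 9 in the genome were within 1.5-fold. Of 23 other listed genes that overlap one of the 9 or lie within 200 kb of it, 12 were measured, and 0 of these were 1.5-fold higher and 0 lower. Their median log2 ratio was 0.09, against 0.00 over all measured genes. Of all measured genes, 3.52% were higher and 5.43% lower, so 0 of 12 is near that share and nothing is read from it. Irx2 and Irx5 had 0 measured genes in this window. The nearest measured genes outside it included Irx1, 665 kb from Irx2, at 3.05, and Mmp2, 466 kb from Irx5, at -1.08. The others of these, leaving out the 9, were within 1.5-fold. Fto, the gene next to Irx3, had 1940 reads in the knockout library and 1760 in the floxed library, a log2 ratio of 0.08 (-0.01 to 0.18). Vti1a, next to Tcf7l2, was at -0.18 (-0.41 to 0.05), Taf3, next to Gata3, at 0.09 (-0.14 to 0.33), and Tbca, next to Otp, at 0.19 (-0.01 to 0.38). Smaller differences on the same side as the 9 genes, with intervals that excluded 0, were seen for Wdr41 beside Otp at 0.31 (0.09 to 0.52), Agap1 beside Gbx2 at 0.25 (0.17 to 0.34) and Rsrc1 at 0.23 (0.02 to 0.45). Beside Foxa1, Mipol1 had 57 reads in the knockout library and 53 in the floxed library. Crnde, the non-coding gene 1.68 kb from Irx5, had 11 reads in the knockout library and 6 in the floxed library and was not measured.

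**Figure D3:**
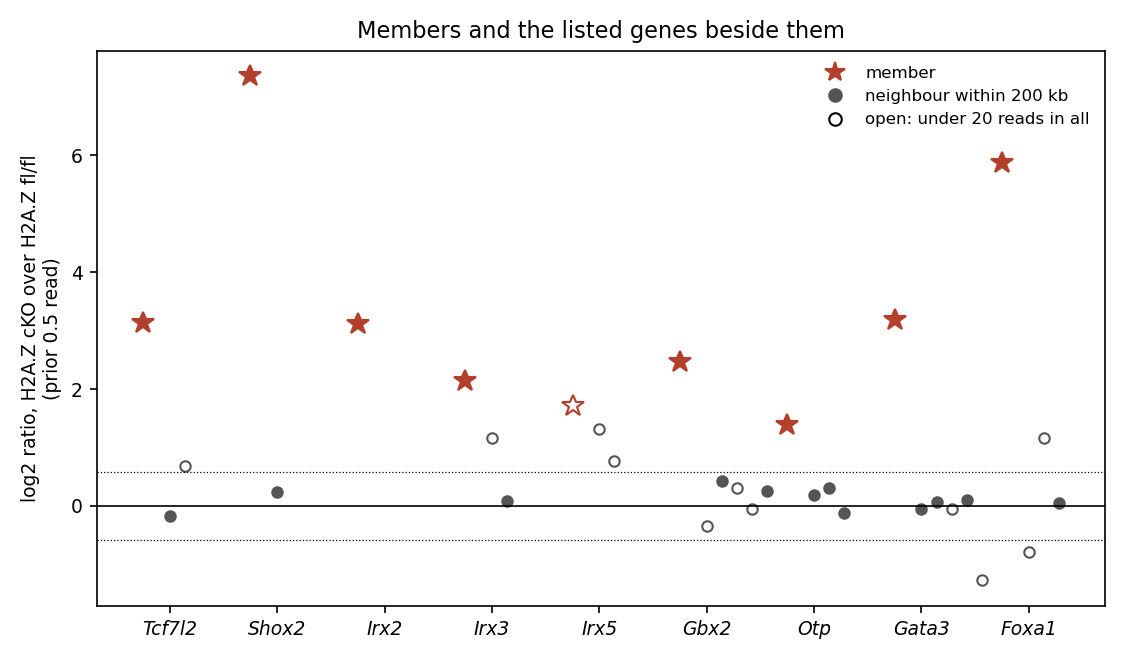
Log2 ratio of the H2A.Z cKO library to the H2A.Z fl/fl library for the 9 genes (stars) and for each listed gene within 200 kb (circles); dotted lines mark 1.5-fold. Filled circles, with at least 20 reads, all lie between the dotted lines, and open symbols have fewer reads.

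Other genes of the same territories were read from lists that do not contain the 9. Over 5 lists named for regions outside the telencephalon, some of whose genes are also telencephalic, 69 of 91 genes were listed and 46 measured. Of these 46, 16 passed 1.5-fold as higher in the knockout and 3 as lower, where 3.52% of all measured genes were higher and 5.43% lower. Beyond counting error, 15 were higher and 2 lower, against 2.02% and 3.2% of all measured genes, and the intervals of Helt (32 reads in the knockout library and 20 in the floxed library) and Foxd1 (9 and 14 in the same order) included no change. The median log2 ratio was 0.25. The 3 lower genes were Otx2 and Lmx1a, which are also on the choroid plexus list, and Foxd1, which is also on the meningeal list. Of the 16 higher genes, at least Isl1, Six3, Nkx2-1 and Foxp2 are also genes of the telencephalon. Lhx2, Neurog2 and Lef1, which were within 1.5-fold, are also on the dorsal telencephalic list. These counts therefore do not measure regions outside the telencephalon alone.

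Most measured genes on the list for the thalamus and habenula were within 1.5-fold. Of 15 measured genes on this list, 3 were at least 1.5-fold higher and 0 lower, with a median log2 ratio of -0.002. Of all measured genes, 3.52% were higher and 5.43% lower. Foxp2, a forkhead gene shared by thalamus, striatum and deep cortex, had 791 reads in the knockout library and 406 in the floxed library, 1.87-fold higher (1.66 to 2.12). Rora, a nuclear receptor gene of sensory thalamic relay neurons, had 95 reads in the knockout library and 53 in the floxed library, 1.72-fold higher (1.22 to 2.46). Gbx1 was the third. Lhx9, Slc17a6 and Cacna1g, which encode a thalamic LIM factor, a vesicular glutamate transporter and a calcium channel of relay neurons, had log2 ratios of 0.00 (-0.21 to 0.21), 0.01 (-0.14 to 0.17) and 0.00 (-0.14 to 0.14). Lhx9, Slc17a6 and Cacna1g had 363, 672 and 812 reads in the floxed library, which thus carried them in quantity. Several genes of this list, such as Lhx2 and Neurog2, are also cortical genes, so the list does not measure the thalamus alone. Sox14, a factor of thalamic and pretectal interneurons, had 19 reads in the knockout library and 0 in the floxed library, 1 read short of the minimum.

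The prethalamic and hypothalamic lists held larger shares of higher genes. Across all measured genes, 3.52% were higher and 5.43% lower. On the prethalamic and zona limitans list, 6 of 11 measured genes were higher and 0 lower, with a median log2 ratio of 0.61 and all 11 above 0. Isl1, a LIM homeobox gene, was 3.14-fold higher (2.55 to 3.90), Six3, a homeobox gene of the anterior neural plate, was 2.21-fold higher (1.84 to 2.65), and Shh, the morphogen of the zona limitans and floor plate, had 31 reads in the knockout library and 12 in the floxed library. The striatum or its progenitors also express Isl1 and Six3, so this list does not measure the diencephalon alone. On the hypothalamic list, 5 of 13 measured genes were higher and 2 lower, with a median of 0.32.

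Nkx2-2, a ventral progenitor gene, had 58 reads in the knockout library and 6 in the floxed library, 9.30-fold higher (4.02 to 26.4), and Nkx2-1, which specifies hypothalamus and ventral telencephalon, was 2.75-fold higher (2.31 to 3.29). Hmx2 and Hmx3, homeobox genes of arcuate hypothalamic neurons, had 13 and 12 reads in the knockout library and 0 each in the floxed library, under the read minimum. Barhl1, a homeobox gene of the mammillary region, had 17 reads in the knockout library and 1 in the floxed library. Genes that act with Otp or depend on it varied. Of 6 measured, 2 were higher and 0 lower, where 3.52% of all measured genes were higher and 5.43% lower. Trh, the thyrotropin-releasing hormone gene, had 25 reads in the knockout library and 8 in the floxed library, and Th, the tyrosine hydroxylase gene, had 36 and 12 in the same order. Sim1 and Sst, a partner factor and a peptide gene, had log2 ratios of 0.39 (-0.36 to 1.17) and 0.04 (-0.12 to 0.20).

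Midbrain and hindbrain genes were mostly too low to compare. On the midbrain list, 15 of 21 genes were listed and 6 measured, with a median log2 ratio of -0.02. Of these 6, 2 were higher and 1 lower, against 3.52% and 5.43% of all measured genes. Tal1, which acts with Gata2 and Gata3 in GABAergic neurons and also in blood and endothelium, had 57 reads in the knockout library and 11 in the floxed library, 4.98-fold higher (2.59 to 10.5). The erythroid list had 0 of 6 measured genes higher and the endothelial list 0 of 8, where 3.52% of all measured genes were higher. Whether blood or vessel cells gave reads of Tal1 was not tested. Lmx1b, a LIM homeobox gene of dopaminergic and serotonergic neurons, had 17 reads in the knockout library and 4 in the floxed library, 4.09-fold higher (1.33 to 16.7). The Gata cofactor genes Zfpm1 and Zfpm2 were at log2 ratios of 0.18 (-0.29 to 0.64) and -0.21 (-0.41 to -0.02). En1, which defines the midbrain-hindbrain region, had 5 reads in the knockout library and 0 in the floxed library. On the hindbrain list, 3 of 16 genes were listed and 1 was measured, which was not 1.5-fold apart.

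Targets and partners of Tcf7l2 in Wnt signalling were mostly level. Of 19 measured genes, 0 passed 1.5-fold as higher in the knockout and 1, the ubiquitin ligase gene Rnf43 with 9 reads in the knockout library and 27 in the floxed library, was lower. The median log2 ratio was -0.04. Of all measured genes, 3.52% were higher and 5.43% lower, so the counts on this list are near that share and nothing is read from them. Axin2, a general target of beta-catenin with TCF factors, was at -0.34 (-0.54 to -0.14), and Ctnnb1, the gene of beta-catenin, at 0.01 (-0.03 to 0.05). Ccnd1, the cyclin D1 gene, was at 0.43 (0.26 to 0.60).

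**Figure D4:**
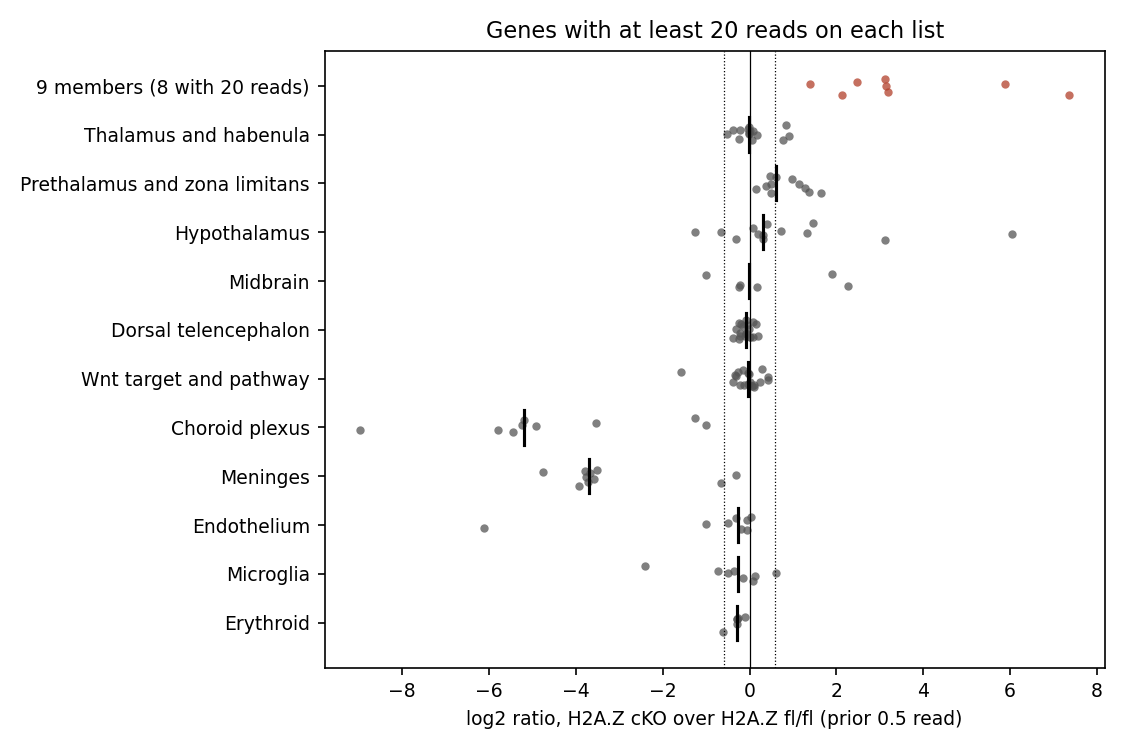
Log2 ratio of the H2A.Z cKO library to the H2A.Z fl/fl library for each measured gene (point) of the 9 genes (red) and of the lists named on the axis (grey); black bars are list medians and dotted lines mark 1.5-fold. The dorsal telencephalic points stay between -0.37 and 0.18, whereas the choroid plexus points lie left of -1.

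Annotation terms in the deposited table gave a weaker contrast. The 16 biological process terms that name the thalamus, hypothalamus, diencephalon, midbrain, habenula or pretectum held 59 listed genes, of which Otp and Gbx2 were the ones among the 9. Leaving these out, 38 genes were measured, with a median log2 ratio of 0.04. Among them, 5 passed 1.5-fold as higher and 2 as lower, where 3.52% of all measured genes were higher and 5.43% lower. The lower count was near that share. The higher ones included Six3, Shh, Gsx1 and Hap1, and the 2 lower ones were Lmx1a and Msx1.

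Choroid plexus and meningeal markers were lower in the knockout library, whereas most endothelial, microglial and erythroid markers were within 1.5-fold. Across all measured genes, 3.52% were higher and 5.43% lower. Of 9 measured genes on the choroid plexus list, 9 were lower in the knockout library by 1.5-fold or more, and the 11 listed ones summed to 13.8 CPM in the knockout library and 793 in the floxed library. Calml4 and Kcnj13 of this list had 0 reads in the knockout library. Of 10 measured meningeal genes 9 were lower, and they summed to 21.1 CPM in the knockout library and 246 in the floxed library. The endothelial list summed to 165 CPM in the knockout library and 188 in the floxed library, with 2 of 8 genes lower and Slco1a4 at 0 reads in the knockout library. The microglial list summed to 47.5 CPM in the knockout library and 63.7 in the floxed library, with 2 of 8 genes lower and 1 higher. The erythroid list summed to 232 CPM in the knockout library and 283 in the floxed library, with 1 of 6 lower. On the list of skin, ear and craniofacial epithelium, which can also express Gata3 or Shox2, 5 of 9 genes were listed and 2 measured, with 0 higher and 1 lower, and Krt8 and Krt18 had 0 reads in the knockout library. The part of dissection or tissue make-up in the differences of the 9 genes was not tested.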

How the data were processed

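Total RNA (Trizol) went into TruSeq libraries, per the labels' protocols. HTSeq 0.6.0, TopHat2 2.0.12, Bowtie2 2.2.3 and the build mm9 are named, without their roles, in the submitters' processing notes; positions in the deposited table were identical to GENCODE M21 gene models on GRCm38 for 79.4% of matched genes, so GRCm38 is given. The authors deposited gene-level raw counts with a single column for each genotype, per the file headers. Of genes with 0 reads in one library, the lowest count in the other was 5, so unlisted genes may have had a few reads. Strand setting, annotation release and the authors’ test: not given in the sources used here. The authors' deposited CPM, fold ratio, log2 and p-value columns were read; folds and significance marks are quoted as theirs. Identifiers matched a symbol for 19616 of 19720 genes.

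Counts were scaled by TMM (edgeR 4.0.16, R 4.3.3). Log2 ratios and calls used a prior of 0.5 read, folds none. Intervals are exact Clopper-Pearson intervals at 95% on the split of reads, and exact Poisson intervals for levels; they cover counting error only. Levels per kb used merged GENCODE exons. A gene is called when it is at least 1.5-fold apart. The calculation was tested on simulated data. Scripts ran under Python 3.11.15 with scipy 1.17.1, pandas 2.3.3, matplotlib 3.10.9 and numpy 2.4.6. Some genes of the lists are counted but not reported by name here. The 9 genes and all lists were chosen with earlier results of these data known. Named genes are the 9, their paralogs and neighbours within 200 kb, the 5 nearest ratios to Tcf7l2, and list genes 1.5-fold apart or among the 4 furthest from 0; other list genes were named after their values were seen. Alternatives were library-total scaling, DESeq2 1.42.0 size factors, a prior of 5 reads, minimums of 10, 100 or no reads, and a fold of 2.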

Additional observations from a re-analysis of the deposited data

How the results depend on the processing

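No paired analysis was possible because each genotype has 1 library. The measured genes of the 9 stayed higher in the knockout library under every alternative that gave them a value. The log2 ratio of Tcf7l2 ranged from 3.08 to 3.16 and that of Otp from 1.29 to 1.41, whereas Shox2 ranged from 4.11 to 7.38 and Foxa1 from 2.75 to 5.90, the lowest values coming from the prior of 5 reads. With a minimum of 100 reads, 2 of the 9 genes were measured, both at least 1.5-fold higher and beyond counting error, and 9 genes of the 5 regional lists were higher and 1 lower. With no minimum, 29 genes of those lists were higher and 6 lower. At 2-fold, 10 were higher and 2 lower, with 0 higher on the list for the thalamus and habenula. Low read numbers limit Irx2, Irx3, Irx5 and Gata3 most. Scaling moved the median of all measured genes by less than 0.1 log2 units: it was 0.00 with TMM, -0.03 by library total and 0.03 with DESeq2 size factors.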

Other observations

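Some genes had reads in the knockout library and almost none in the floxed library. Of 19720 listed genes, 11 had at least 20 reads in the knockout library and 3 or fewer in the floxed library, and 30 had the reverse. Shox2, Foxa1, Gata3 and Irx2, which were picked on this same difference, were 4 of the 11, and Irx1 was another. The genes named next were chosen after their values were seen. Onecut3, a cut-homeobox gene of hypothalamic and midbrain neurons, had 43 reads in the knockout library and 1 in the floxed library, a ratio of 41.3 (7.04 to 1671). Calcr, the calcitonin receptor gene, had 33 reads in the knockout library and 2 in the floxed library. C1ql2, which encodes a secreted synaptic protein, had 28 reads in the knockout library and 0 in the floxed library. The non-coding gene C130021I20Rik had 23 reads in the knockout library and 1 in the floxed library. The agouti gene had 25 reads in the knockout library and 0 in the floxed library.

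Homeobox genes, taken from the domain column of the deposited table after the values of the 9 genes were seen, differed in both directions. This choice left out Isl1, Lmx1b and Onecut3, which were measured and higher in the knockout library. The shares below therefore cover only the genes so marked. Leaving out the 9, 49 homeobox genes were measured, of which 14 (28.6%) passed 1.5-fold as higher in the knockout and 8 (16.3%) as lower, where 3.52% and 5.43% of all measured genes were. Their median log2 ratio was 0.08. The higher ones included Gsx1, a ventral progenitor gene with 38 reads in the knockout library and 14 in the floxed library, and Zfhx3, with 526 and 197 in the same order. The lower ones included Msx1, a BMP target of the dorsal midline, choroid plexus and meninges, with 7 reads in the knockout library and 61 in the floxed library, and Alx4, a craniofacial mesenchyme gene, with 10 and 36 in the same order.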
